A study of Drosophila melanogaster with 4 samples.

Results

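The regions described here are the stretches of the left arm of chromosome 2 (2L) of Drosophila melanogaster that were enriched for RNA polymerase II (Pol II) in nuclei of wild-type larvae. A member is an enriched region of the list made from the replicate set that ends at or below base 21000000 of 2L and overlaps, by at least 1 bp, an enriched region of each of the 2 ChIP replicates. This rule gave 899 regions, called the main set, out of 1301 replicate set regions on this stretch and 8273 in the whole genome. Replicate 1 had 1173 enriched regions on the same stretch of 7517 in all, and replicate 2 had 1045 of 6487. Of the 402 replicate set regions outside the main set, 162 overlapped replicate 1 alone, 61 overlapped replicate 2 alone and 179 overlapped neither. The last region inside the limit lay at chr2L:20921782-20923830 with a score of 0.45, and the first one beyond it at chr2L:21050796-21054126 with a score of 2.21.

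The method was ChIP-seq (chromatin immunoprecipitation with sequencing), in which DNA bound to a protein is pulled down with an antibody and compared with unselected chromatin (input). All samples came from the Oregon-R strain (Oregon-R-modENCODE), of wild-type genotype, at instar 3, the last larval stage, in which the animal feeds, grows and prepares to pupate. The 2 ChIP samples were made with an abcam antibody to Pol II, and the 2 input samples were their reference, with crossed numbers (input replicate 1 belonged to ChIP replicate 2, and input replicate 2 to ChIP replicate 1). No input sample has a region list of its own among the files used here, so nothing is compared between groups of samples. The labels do not state whether each replicate was a larval collection of its own, and the spread between replicates may be technical. The larvae were homogenised, so each region sums over all tissues, and more cells with Pol II at a gene cannot be told apart from more Pol II per cell.

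Pol II transcribes all protein-coding genes and most small nuclear RNA and microRNA genes, whereas transfer RNA genes are read by RNA polymerase III. At many Drosophila genes the enzyme is engaged shortly after the start site and waits there before it is released into the gene body, so ChIP signal is often higher at the start than further in. Where a gene is transcribed at a high rate, Pol II is found along its whole length.

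Each region carried 1 value, the score, which was the log2 of a ratio read here as ChIP over input reads plus a constant for each list. A fold is 2 to the power of the score. Since the constant differs between lists, folds of replicate 1, replicate 2 and the replicate set are given side by side, with no difference in level read from them. A replicate's fold for a main set region is that of the highest-scoring replicate region overlapping it, which can be narrower. The main set covered 17.6% of the first 21 Mb of 2L, with a median region width of 2729 bp (quartiles 2146 and 4687 bp) and a range of 1033 to 38513 bp. Its scores had a median of 0.99, which is 1.98-fold, and ran from 0.01 to 3.53. Replicate 1 covered 18.0% of the same bases and replicate 2 covered 16.3%. The median score of all enriched regions on this stretch was 0.79 in replicate 1, 1.04 in replicate 2 and 0.63 in the replicate set, against 0.78, 1.04 and 0.61 in the same 3 lists over the arms 2R, 3L, 3R and X. Library depth is unknown here. The counts left in the ratios are lower limits, and in the main set they had medians of 1047 ChIP and 547 input reads per region, which gives a median standard error from counting of 0.08 on the log2 scale as an upper bound. Without molecular identifiers a read is not an independent molecule, and all fold intervals cover counting error only.

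Genes came from a RefSeq table on release 6 of the genome, whereas the regions are on release 5. The gene edges were therefore moved step by step against the replicate regions. The share of protein-coding gene edges inside regions, averaged over both replicate lists, was 44.0% with no shift. It was 39.3% and 39.2% at shifts of 1000 bp to the left and right, 30.9% and 31.2% at 2000 bp, and 23.05% and 22.66% at 20000 bp. In 18 of 21 windows of 1 Mb the midpoint of this peak lay within 100 bp of 0, and in all 21 it lay between -275 and 150 bp. Gene positions were used with this uncertainty along the whole stretch. The table gives no strand, so a gene's start and end could not be told apart, and either end of an annotated gene is called an edge. No coordinates of genes and no sequences are printed, because no genome or sequence table of either release was used here.

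Regions of the main set lay over the edges of protein-coding genes. Of the 899 regions, 736 (81.9%, 95% Wilson interval 79.2 to 84.2%) held at least 1 coding gene edge, against 114 (28.4%, 24.2 to 33.0%) of the 402 replicate set regions outside the main set. These intervals treat regions of 1 genome as independent and hold no spread between replicates, and the difference was not tested. Another 151 main set regions (16.8%) lay inside a coding gene without reaching either edge, and 12 (1.33%) overlapped no coding gene. In the replicate lists, 70.2% of all replicate 1 regions and 79.3% of all replicate 2 regions held a coding edge. The centre of the region was within 500 bp of a coding edge in 58.5% of the main set, against 21.4% of the regions outside it and 16.6% of all bases of the stretch. The median distance from the centre to the nearest coding edge was 367 bp in the main set, 2728.5 bp outside it and 3134 bp over all bases. Region widths enter these shares, since main set regions were wider (median 2729 bp) than those outside it (1444 bp).

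The reverse count gave the same picture from the genes' side. Of 4801 positions that are an edge of a coding gene, 45.0% lay inside a main set region, against 17.6% of all bases. In replicate 1 these shares were 44.4% and 18.0%, and in replicate 2 they were 43.7% and 16.3%. Within coding genes, 43.4% of the bases less than 500 bp from an edge were inside main set regions, then 41.1% from 500 to 1000 bp, 24.5% from 1 to 2 kb, 15.8% from 2 to 3 kb and 7.91% beyond 20 kb. Outside coding genes the share was 37.3% within 500 bp of an edge, 20.7% from 500 to 1000 bp, 3.17% from 1 to 2 kb and 0.38% from 3 to 5 kb. Bases outside coding genes here leave out neighbouring coding genes, and on that footing coverage fell off more slowly into the gene than away from it. Main set bases were inside coding genes in 85.1% of cases, compared with 68.0% of all bases, and within 500 bp of an edge in 39.3%, compared with 16.6%.

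Long genes show where regions lie around an edge, because the ends of the gene are far apart. The profile counts listed regions and not reads. Region width therefore enters how far the share stays level and where it drops (main set quartile 1 of 2146 bp, median 2729 bp). The 313 coding genes of 10 kb or longer have 626 edges, and 49.8% of these edges were inside a main set region, with 48.9% in replicate 1 and 51.1% in replicate 2. The share was level, between 50.5% and 51.0%, at every step from 800 to 100 bp outside the gene. It was 40.1% at 1000 bp inside the gene, 18.2% at 2000 bp and 15.5% at 5000 bp. On the outer side, where neighbouring genes are counted, it was 28.8% at 2000 bp and 24.9% at 5000 bp, so for long genes the share at these distances was higher outside than inside.

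**Figure D1:**
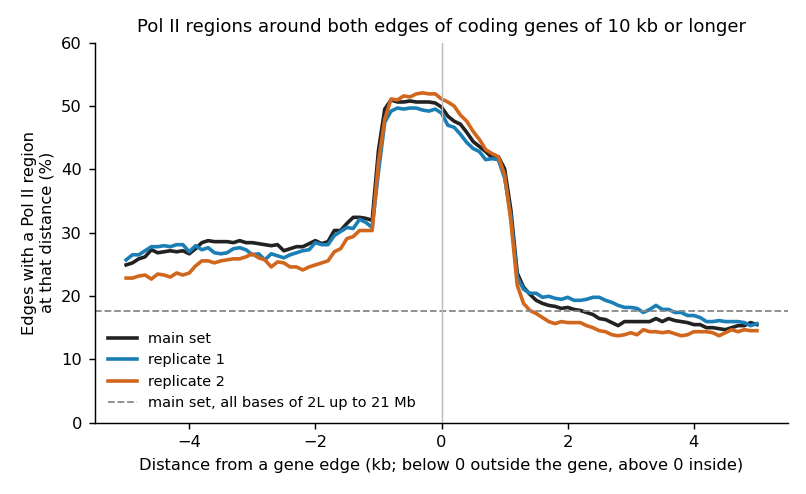
Share of the 626 edges of coding genes of 10 kb or longer that had a Pol II region at each distance from the edge (x axis in kb, below 0 outside the gene and above 0 inside), for the main set and each replicate list. All 3 lines stand near 50% at the edge and drop within 2 kb inside the gene to near the dashed line, the 17.6% of all bases covered by the main set.

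At least 1 edge lay in a main set region for 1449 of 2438 coding genes (59.4%). Both edges did for 748 (30.7%), and 515 genes (21.1%) lay inside main set regions over their whole length. Replicate 1 regions reached an edge of 1463 coding genes and replicate 2 regions an edge of 1453, with 1395 genes in common, which is 95.4% of the replicate 1 genes and 96.0% of the replicate 2 genes. In this compact genome a region seldom belonged to 1 gene. For 1211 of the 1449 genes (83.6%), every region at an edge also held an edge of another coding gene, and 238 genes had a region of their own. Of the main set, 283 regions contained at least 1 whole coding gene and 55 contained 3 or more. The most whole coding genes in 1 region was 11, at chr2L:4964866-4982808, where mRpL28, a protein of the mitochondrial ribosome, lies.

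Gene length went with how many edges were occupied. Among 1194 coding genes under 2 kb, 52.8% had no edge in a region, 13.7% had 1 and 33.6% had both. Among 141 genes of 10 to 20 kb these shares were 18.4%, 57.4% and 24.1%, and among 50 genes of 50 kb or longer they were 28.0%, 46.0% and 26.0%. The mean share of the gene body inside regions was 41.3% in genes under 2 kb, 25.5% in genes of 10 to 20 kb and 8.69% in genes of 50 kb or longer. At least 1 edge was occupied in 47.2% of the genes under 2 kb, which are shorter than the median region.

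**Figure D2:**
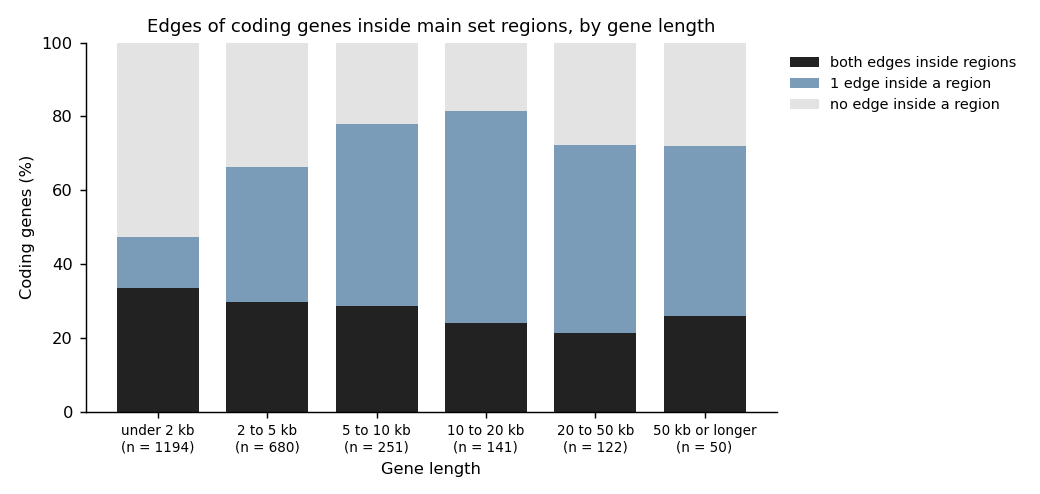
Share of coding genes with both, 1 or no edge inside main set regions (y axis, percent), in 6 classes of gene length (x axis, with the number of genes). The share with exactly 1 occupied edge goes from 13.7% under 2 kb to 57.4% at 10 to 20 kb and 46.0% at 50 kb or longer.

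Of the 313 long genes, 239 (76.4%) had an occupied edge. Exactly 1 edge was occupied in 166 (53.0%), and the median share of the gene inside regions was then 7.87%. Both edges were occupied in 73, with a median of 27.0% covered. The other 74 had no occupied edge, 25 of them with a region inside the gene and 49 with none. The occupied edge was the one with the lower coordinate in 81 genes and the one with the higher coordinate in 85. Lar, a receptor tyrosine phosphatase gene of 145 kb, had 1 region over 1.20% of its length. CadN, the gene of neural cadherin, was covered over 2.34% of 131 kb, whereas its paralog CadN2 (88.3 kb), the cell adhesion gene fred (88.8 kb) and CG46244 (125 kb) had no main set region. These genes were chosen for their length.

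A few long genes were filled from end to end. Of the 313, 6 lay wholly in main set regions. They were Mhc, the muscle myosin heavy chain (22.2 kb), drongo (17.5 kb), Kr-h1, a zinc finger factor of the juvenile hormone response (13.9 kb), cact, the IκB of flies (13.2 kb), CG3036 (11.8 kb) and FASN1, a fatty acid synthase (11.6 kb). Mhc, Kr-h1 and FASN1 were also covered over 100% of their length in each replicate list, whereas cact was covered over 92.4% in replicate 1 and 100% in replicate 2. CG9932, at 38.3 kb, was covered over 98.9% in the main set, 97.8% in replicate 1 and 100% in replicate 2. Further long genes covered over more than 90% included the kinase subunit gene Pka-C1 (93.4%), the ecdysone-inducible zinc finger gene crol (96.6%), Socs36E, a feedback inhibitor of JAK/STAT signalling (99.7%), and the odd-skipped family gene bowl (94.6%). poe is an example where the lists differ, with 98.5% in the main set, 70.5% in replicate 1 and 46.6% in replicate 2.

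CG9932, Mhc and cact lay in the 5 widest regions, together with Msp300. Replicate folds here are those of the highest-scoring overlapping replicate region, whereas the replicate set fold is that of the whole region. The widest, chr2L:13022730-13061242, spanned 38.5 kb over CG9932 alone, with 5.30-fold in replicate 1, 2.41-fold in replicate 2 and 2.30-fold in the replicate set. A pair of regions of 30.4 and 27.1 kb, with 2.03-fold and 2.22-fold in the replicate set, lay over Msp300, the giant nesprin that anchors muscle nuclei, and covered together with smaller ones 64.3% of its 106 kb. The region over Mhc, chr2L:16765498-16792700, spanned 27.2 kb and also took in Cyt-b5-r and CG17928. Its fold was 4.29 in replicate 1, 4.48 in replicate 2 and 4.33 in the replicate set. The fifth, of 23.7 kb at chr2L:16306278-16329930, held 8 coding genes, with cact, the cell cycle gene fzy and mRpL4 among them, at 4.74-fold in replicate 1, 2.90-fold in replicate 2 and 2.55-fold in the replicate set. The 5 widest regions thus lay over 1 long gene or over several genes in a row.

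The 10 highest scores were in regions of 2.33 to 7.07 kb. The highest, chr2L:12044042-12049192, covered edges of Plzf, a BTB zinc finger gene, of CG6785, CG6770 and lncRNA:CR44589, with 9.62-fold in replicate 1, 16.6-fold in replicate 2 and 11.6-fold in the replicate set (95% counting interval 11.0 to 12.2). It ranked 1 in each list. The next, chr2L:13877884-13880340, lay inside CenG1A, an Arf GTPase-activating protein gene, and held neither of its edges, at 8.66-fold, 10.6-fold and 9.25-fold in the same 3 lists. The others of the 10 were between 7.44-fold and 8.74-fold in the replicate set, and all 10 ranked from 1 to 17 in replicate 1 and from 1 to 16 in replicate 2.

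Transcription factors and junction proteins were among these. A region of 2.42 kb at an edge of chinmo, a zinc finger factor that times neuronal identity and maintains stem cell states, had 7.87-fold in replicate 1, 9.94-fold in replicate 2 and 8.74-fold in the replicate set. An edge of aop, the ETS repressor of Ras signalling also called Yan, had 7.60-fold, 9.45-fold and 8.19-fold in the same lists. Regions at vari with CG9328 (8.36-fold in the replicate set) and at Gli (8.02-fold, interval 5.03 to 12.8) belong to genes of septate and tricellular junctions, which seal epithelia. Thor, the translation inhibitor 4E-BP, shared its region with CG15414 and a pair of lncRNA genes, at 6.77-fold in replicate 1, 12.1-fold in replicate 2 and 7.44-fold in the replicate set. The remaining 3 covered CG10570, CG42502, CG17325 and CG42305 (8.66-fold), kek4, CG9426 and the spliceosomal RNA gene snRNA:U2:34ABb (8.52-fold), and Lrch with the microtubule plus-end protein gene CLIP-190 (7.55-fold).

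Regions away from any coding edge were not weak throughout. The 736 regions with an edge had a median score of 1.01 in the replicate set, against 0.78 for the 151 regions inside a gene body, and the order was the same in replicate 1 (1.01 against 0.81) and replicate 2 (1.20 against 0.97). The difference of 0.23 turned to -0.26 when the higher-scoring 50% of each list was used. By width, the order was also the other way among regions of 2 to 3 kb, with a median of 0.96 for those with an edge and 1.13 for 79 regions inside a body, and, by little, among regions under 2 kb (0.25 and 0.26). In the 3 classes from 3 kb up, regions with an edge were higher. The genes that held body regions had a median length of 32.3 kb, against 2.06 kb for all coding genes. The class itself favours long genes, since a body region (median width 2279 bp) must fit inside a gene without reaching an edge. After CenG1A, the highest of them lay in sick (7.17-fold), in ND-15 and CG3164 (7.10-fold), in RapGAP1, a GTPase-activating protein gene of Rap1 (7.01-fold), and in vari (6.99-fold), next to the vari region at its edge. The table gives 1 start and 1 end per gene, so an internal start site of a long gene would be counted as body here. Of the 151 regions, 13 overlapped an annotated non-coding gene.

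Among the main set, 3 regions overlapped no gene of the table used here, and 2 of these were well above the median. The region chr2L:20147542-20149680 had 3.17-fold in replicate 1, 5.75-fold in replicate 2 and 4.24-fold in the replicate set (interval 3.84 to 4.68), and its nearest gene was CG10651, 12.6 kb away. The region chr2L:20222028-20224182 had 3.08-fold, 4.11-fold and 3.52-fold in the same lists, with lncRNA:CR40341 as the nearest gene at 23.9 kb. The region chr2L:17101430-17103428 had 1.40-fold in the replicate set and lay 1.72 kb from lncRNA:CR45448.

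**Figure D3:**
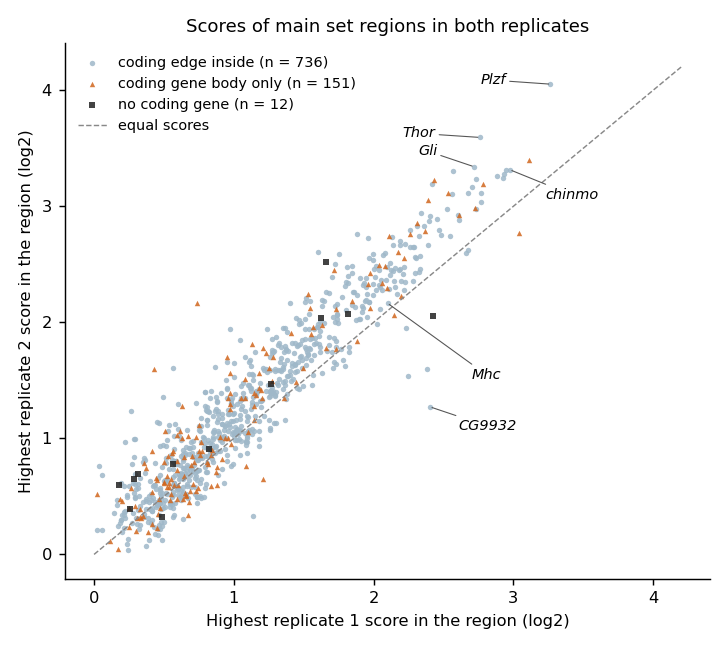
Highest replicate 1 score (x axis, log2) and replicate 2 score (y axis, log2) overlapping each of the 899 main set regions, marked by where the region lies relative to coding genes. Body-only regions (triangles) spread over the same range as regions with an edge, most points lie above the dashed line of equal scores, and CG9932 is among the few far below it.

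Over the 899 regions the highest overlapping scores of the replicates had a Pearson r of 0.94 and a Spearman rho of 0.93, as a description across regions of 1 genome that were chosen for overlap in both lists. Replicate 2 minus replicate 1 had a median of 0.19 and an SD of 0.26 (log2). The regions with the largest gaps in favour of replicate 1 were the one over CG9932 (scores 1.27 in replicate 2 and 2.41 in replicate 1), one at PCNA2 and CG10366 (0.33 and 1.14) and one over CG5953 (1.60 and 2.38). In favour of replicate 2 they were inside CG31705 (2.16 in replicate 2 and 0.74 in replicate 1), in another region of CG5953 (1.60 and 0.43) and at CG17350 and fon (1.61 and 0.57). The same replicate 2 score of 1.60 stands for both regions of CG5953, whose main set regions are neighbours. Regions found in 1 replicate with no overlap in the other numbered 186 in replicate 1, of which 26.9% held a coding edge, and 67 in replicate 2, of which 50.7% did. Their median scores were 0.52 and 0.41. The highest of them lay in the giant extracellular matrix gene dpy, at chr2L:4537084-4539211 in replicate 1 (6.43-fold, interval 2.51 to 16.4, at 34 ChIP and 5 input reads in lowest terms) and at chr2L:4544163-4545525 in replicate 2 (12.0-fold, interval 1.54 to 94.1, at 10 and 1 reads).

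The occupied genes were then read by function, with 21 lists of genes chosen with earlier results of these data known. Only members that the table places on this stretch were counted, and each count stands beside the 59.4% of all coding genes with an occupied edge. Gene length enters too, since that share was 47.2% for coding genes under 2 kb and 76.4% for those of 10 kb or longer. Since many genes share regions, a member's score is that of the highest main set region over it and may belong to a neighbour. Such sharing is named below for some genes only. A member's replicate folds are those of the highest replicate region over it. A gene is said to have no region where no main set region overlaps it. When the higher-scoring 50% of each list was used, 39.9% of all coding genes had an occupied edge, and with 50% reciprocal overlap 51.5% had, so that list counts under these settings are read against those shares. The median of these scores over all coding genes with a main set region was 1.14.

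**Figure D4:**
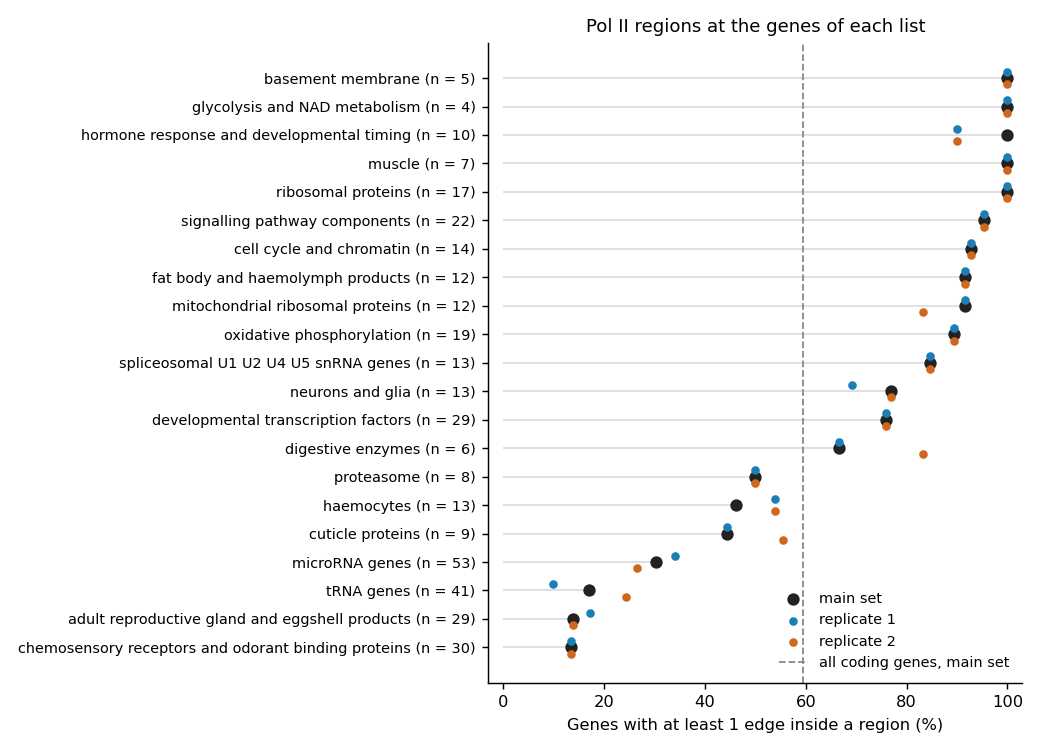
Share of each list's genes with at least 1 edge inside a region (x axis, percent), for the main set and each replicate list, with the number of genes on this stretch in brackets. The dashed line marks the 59.4% of all coding genes, and the ribosomal protein, muscle, basement membrane, glycolysis and hormone response lists stand at 100% in the main set, while the chemosensory and adult reproductive lists stand near 13 to 14%.

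Ribosomal protein genes on this stretch were occupied without exception. All 17 ribosomal protein genes had an edge in a region, 15 had both, and each had an edge in a region of both replicates. Their scores ran from 1.12 to 2.22 with a median of 1.56. RpS21 had 4.43-fold in replicate 1, 5.12-fold in replicate 2 and 4.65-fold in the replicate set, and RpL30 had 4.40-fold, 5.44-fold and 4.64-fold in the same lists. RpS2 (3.48-fold in the replicate set) and RpS13 (3.38-fold) followed, and RpS28-like was lowest at 2.18-fold. These are small genes of 0.424 to 2.1 kb, and 1 of the 17 had a region that it shared with no other coding gene's edge. Counts of ribosomal protein genes can be uncertain where reads also match processed copies elsewhere, and how such reads were handled is not given in the sources used here.

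Mitochondrial genes were occupied at lower scores. Of 12 genes of the mitochondrial ribosome, 11 had an occupied edge, with a median score of 0.97, but 5 of 12 had with 50% reciprocal overlap and 6 among the higher-scoring 50% of each list. mRpL27 (2.95-fold, in the region that also holds RpL27A), mRpS23 (2.72-fold), mRpL4 (2.55-fold) and mRpL28 (2.38-fold) were highest, and mRpS18B had no main set region. Of 19 genes of oxidative phosphorylation, 17 were occupied, with a median of 1.01. ND-15, a subunit gene of complex I, had 7.10-fold in a region inside its annotated span of 41.3 kb that also lay in CG3164. ATPsynG (3.04-fold) and ND-B8 (2.95-fold, at the region of RpL27A) followed. The 2 members with no region were ATPsynGL and COX6CL, which carry the names of like copies of ATPsynG and COX6C. Other copies named in this way were occupied, COX5BL at 2.01-fold, the score of COX5B, and COX7AL2 at 2.03-fold. Cyt-c-p and Cyt-c-d, the somatic and the male germline cytochrome c genes, lie side by side and had 1 score, 2.33-fold in the replicate set, because the same region reached both.

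In the proteasome list 4 of 8 genes had an occupied edge (50%), near the 47.2% of all coding genes under 2 kb. Prosalpha6 (3.60-fold in the replicate set), Prosbeta4 (3.29-fold), Rpn11 (2.18-fold) and Rpn3 (1.98-fold) were each covered over 100% of their length. Prosalpha6T, Prosbeta4R1, Prosbeta4R2 and Prosbeta5R2, copies of core subunits that are named after them, had no region in the main set or in either replicate. Prosalpha6T is known as a testis-expressed form of Prosalpha6. This division of the 8 genes was drawn after their values were seen. All 4 listed glycolysis and NAD genes were occupied at high scores, with a median of 2.13. Pgk (phosphoglycerate kinase) had 5.04-fold in replicate 1, 5.95-fold in replicate 2 and 5.32-fold in the replicate set, Eno (enolase) had 4.25-fold, 5.15-fold and 4.61-fold, and Gpdh1 had 3.89-fold, 6.62-fold and 4.14-fold. Mdh1, malate dehydrogenase, had 2.59-fold in the replicate set.

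Genes of fat body, muscle and basement membrane were occupied in nearly all cases. Of 12 genes of fat body and haemolymph products, 11 had an occupied edge, with a median score of 1.63. Lsp1beta, a larval serum protein that the fat body secretes in the last instar, had 6.08-fold in replicate 1, 7.58-fold in replicate 2 and 6.74-fold in the replicate set, in a region that also holds the small nuclear RNA gene snRNA:U1:21D. FASN1 and FASN2 had 3.26-fold, and Adh and Adhr 2.88-fold, in the replicate set. Apoltp, a lipid carrier gene of 21.8 kb, was at the other end with 1.01-fold over 4.53% of its length. The member with no region was Sgs1, which encodes a glue protein of the salivary gland and is not a fat body gene. All 7 muscle genes had an occupied edge, and 3 did among the higher-scoring 50% of each list. Among them Msp300 and Mhc were highest (4.81-fold and 4.33-fold), then Tig (3.04-fold) and TpnC25D (2.22-fold, in a region that also lay over tkv). The glutamate receptor genes of the neuromuscular junction, GluRIIA and GluRIIB, had 1.82-fold and 1.43-fold. All 5 basement membrane genes were occupied as well, from LanB1 (laminin B1) at 4.75-fold to Col4a1 (collagen IV) at 1.42-fold. vkg, the partner collagen of Col4a1, had 2.64-fold in a region that also lay over Rtnl1, and 20.8% of vkg was covered. The muscle and basement membrane lists had median lengths of 8.13 and 9.33 kb. Of all coding genes of 5 to 10 kb, 21.9% had no occupied edge.

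Cuticle and gut genes were mixed. Of 9 cuticle genes, 4 had an occupied edge. obst-B (3.40-fold), Pcp (2.50-fold) and obst-E (2.40-fold) were highest, Cpr23B had 1.18-fold, and Cpr30B, Cpr30F, Cpr31A and Cpr35B had no region. Of 6 digestive enzyme genes, 4 were occupied (2 among the higher-scoring 50% of each list), with the maltases Mal-B1 and Mal-B2 at 2.13-fold and the serine proteases Jon25Biii and Jon25Bii at 1.62-fold and 1.22-fold. Jon25Bi had no main set region but 1 in replicate 2, and Bace had none in any list. Of 13 haemocyte genes, 6 were occupied (2 among the higher-scoring 50%), with Pvr (6.11-fold), which many tissues express, and the scavenger receptor gene crq (1.76-fold) highest. He, NimA, NimC2, NimC3 and NimC4 had no region in any list, and the cluster of NimB2, NimB3 and NimB4 shared 1 region at 1.59-fold.

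Genes of chemosensation and of adult reproduction were rarely occupied. Of 30 chemosensory receptor and odorant binding protein genes, 4 (13.3%) had an occupied edge, none had both edges inside, and none had a region free of another coding gene's edge. Shared regions are common, at 83.6% of all coding genes with an occupied edge. The mitochondrial ribosome, proteasome and glycolysis lists also had no gene with a region of its own. The 4 were Obp28a (5.39-fold), Ir31a (3.09-fold, at the region of RpS27A), Ir21a (2.27-fold, at that of l(2)gl) and Ir25a (1.65-fold). Gr21a, Gr22a, Gr22b and Gr22c are among the 26 others. Of 29 genes of adult reproductive glands and eggshell, 4 (13.8%) had an occupied edge, and 1 did among the higher-scoring 50%. Sfp26Ad was reached by the region of Gpdh1 (4.14-fold), and Sfp24F, Vm32E and Acp24A4 had 1.75-fold, 1.72-fold and 1.54-fold. Acp26Aa, Acp26Ab and Acp29AB had none. Acp1 had none either, and its symbol stands for an adult cuticle protein, so it does not belong to the list by function.

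Most neuronal genes with an occupied edge had little of the gene covered, as long genes in general did. Of 13 neuron and glia genes, 10 had an occupied edge, 2 had both, and 7 had a region of their own. These are long genes (median 31.7 kb), and of all coding genes of 10 kb or longer 76.4% had an occupied edge. Among the higher-scoring 50% of each list the count was 4 of 13. tutl, an immunoglobulin superfamily gene, had 3.98-fold over 2.80% of its 40.6 kb, and Ca-alpha1D, a calcium channel gene, had 1.83-fold over 4.53%. Ddc (dopa decarboxylase, also used to harden cuticle) was covered over its whole 3.82 kb at 2.83-fold, and Pka-C1 over 93.4% at 4.55-fold. nAChRalpha6 had 3.50-fold, but its region covered 0.08% of the gene, so that score belongs to a region lying almost wholly beyond it. Syt1 (synaptotagmin), VGlut (the vesicular glutamate transporter) and CadN2 had no region in the main set or in either replicate.

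Signalling genes were nearly all occupied. Of 22, 21 had an occupied edge, 6 had both, and 11 had a region of their own, with a median score of 1.45. Their median length was 18.2 kb, and 76.4% of all coding genes of 10 kb or longer had an occupied edge. Among ligands, Pvf2 had 4.23-fold in replicate 1, 6.06-fold in replicate 2 and 5.04-fold in the replicate set. The BMP ligand gene dpp had 3.53-fold over 10.3% of its 31.5 kb, the EGF ligand gene spi was covered over 100% at 2.54-fold, and of the Wnt genes wg had 1.65-fold, Wnt6 1.38-fold and Wnt4 1.29-fold, while Wnt10 had no region. Among receptors, Pvr, which binds Pvf ligands, had 5.54-fold, 6.96-fold and 6.11-fold in replicate 1, replicate 2 and the replicate set. The BMP receptor gene tkv had 2.22-fold, at the region of TpnC25D, and the Hedgehog transducer gene smo had 1.96-fold in the replicate set. Of the regulators further in, ex, an upstream component of the Hippo pathway, had 5.72-fold and numb, an inhibitor of Notch, had 5.21-fold. The atypical cadherin genes ds and ft had 4.33-fold and 2.96-fold over 1.53% and 6.88% of their length. dpp, spi, the 3 Wnt genes with a region, tkv, smo, ds and ft were named after their values were seen.

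Developmental transcription factors were occupied in 22 of 29 cases (75.9%), with 17 having a region of their own and a median score of 1.56. Their median length was 12.4 kb, and the share is near the 76.4% of all coding genes of 10 kb or longer. After chinmo and aop came dl (Dorsal, the NF-κB of the Toll pathway) with 5.27-fold in replicate 1, 7.35-fold in replicate 2 and 6.14-fold in the replicate set, and esg, a snail family gene of progenitor cells, with 4.91-fold, 5.92-fold and 5.20-fold. Gsc, H2.0, pdm2, prd, sna and wor had no main set region, and nub had 1 inside its body at 3.44-fold. Neighbouring paralogs differed here. In the escargot-snail-worniu group, esg was covered over 97.9% of its length while sna had a region in replicate 1 but none in replicate 2 or the main set, and wor had none in any list. salm had 2.96-fold and salr 1.31-fold in the replicate set, odd had 3.85-fold, sob 2.93-fold and drm 1.28-fold, and slp1 had 1.91-fold and slp2 1.30-fold. These paralogs were chosen after their values were seen, and folds of regions from 1 list are compared with no test.

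All 10 genes of hormone response and developmental timing had an occupied edge in the main set, at a median score of 1.50. In each replicate list 9 did, with vri the exception in replicate 1 and Ptth in replicate 2. Their median length was 18.7 kb, and 76.4% of all coding genes of 10 kb or longer had an occupied edge. vri, a leucine zipper gene that ecdysone induces, had 4.45-fold, 4.95-fold and 4.49-fold in replicate 1, replicate 2 and the replicate set, E23, an ecdysone-induced transporter gene, had 3.81-fold, 5.05-fold and 4.34-fold, and the sterol transport gene Npc1a had 3.09-fold, 4.41-fold and 3.60-fold. The region at Npc1a also lay over the proteasome gene Prosalpha6, and 20.4% of Npc1a was covered. Ptth, the neuropeptide that triggers ecdysone release, had 1.81-fold in the replicate set with no region over the gene in replicate 2. Of 14 cell cycle and chromatin genes, 13 were occupied. The highest were mts (3.33-fold), Dref (3.29-fold, at the region of RpL13), Sirt1 (3.21-fold) and grp (2.77-fold). The Polycomb group gene esc had no main set region but 1 in replicate 1.

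**Figure D5:**
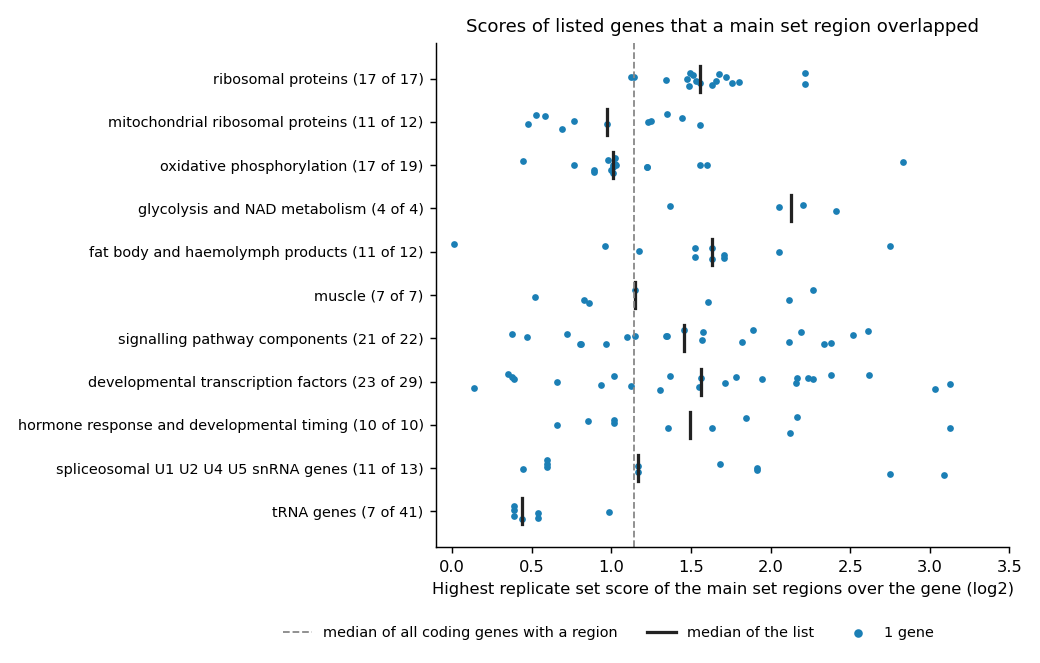
Highest replicate set score (x axis, log2) of the main set regions over each gene of 11 lists, 1 point per gene, with each list's median as a bar and the median of all coding genes with a main set region as a dashed line. Ribosomal protein genes lie in a narrow band from 1.12 to 2.22, transcription factors spread from 0.14 to 3.13, and tRNA genes stay below 1.

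Small nuclear RNA genes and transfer RNA genes stood far apart. Of the 13 spliceosomal U1, U2, U4 and U5 genes, which Pol II transcribes, 11 (84.6%) had an occupied edge, against 23.6% of all 730 non-coding genes, and 7 did among the higher-scoring 50% of each list. In the main set, 4 of the 11 had a region without a coding edge of another gene. Of all 15 small nuclear RNA genes, 7 lie inside coding genes, 6 of them with an occupied edge, and cannot be told apart from their hosts. snRNA:U2:34ABb had 7.63-fold in replicate 1, 9.69-fold in replicate 2 and 8.52-fold in the replicate set, snRNA:U1:21D had 6.74-fold in the replicate set, and snRNA:U2:34ABc and snRNA:U5:34A shared a region at 3.77-fold. snRNA:U4:25F and snRNA:U5:23D had none. Of 41 transfer RNA genes, 7 (17.1%) lay in a main set region, 4 in a replicate 1 region and 10 in a replicate 2 region, with a median score of 0.44 in the main set. The count was 11 without replicate 1, 3 with 50% reciprocal overlap and 1 among the higher-scoring 50%. The highest was tRNA:Thr-AGT-1-1 at 1.98-fold. Both kinds of gene exist in near-identical copies, so the counts of each copy are uncertain.

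Of 53 microRNA genes, 16 (30.2%) lay at a main set region, against 23.6% of all non-coding genes, and 4 of them in a region without a coding edge of another gene. Of the 53, 39 lie inside coding genes, 9 of them with an occupied edge, and cannot be told apart from their hosts. mir-275 and mir-305, which lie together in 1 transcript, had 6.81-fold in replicate 1, 8.65-fold in replicate 2 and 6.40-fold in the replicate set, and mir-967 had 4.64-fold, 4.84-fold and 4.25-fold. The region of mir-275 and mir-305 also holds 2 coding gene edges. mir-2a-1, mir-2a-2 and mir-2b-2 shared the 2.54-fold region of spi, and mir-1, the muscle microRNA, had 2.44-fold. mir-100, mir-125 and mir-let7 had no region, while lncRNA:let7C, their host transcript, had 1 over 6.34% of its 17.4 kb at 1.58-fold. Among other kinds, 18 of 37 small nucleolar RNA genes, 44 of 87 antisense RNA genes and 70 of 491 long non-coding RNA genes (14.3%) had an occupied edge. Many of these lie inside coding genes, 28 of the 37 small nucleolar RNA genes for example, and cannot be told apart from their hosts.

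Coding genes touched by the main set were counted in unbroken rows along the arm. Since 1 region overlapped up to 13 coding genes, neighbours are often touched together, and no expected row length was computed. The longest unbroken row of coding genes touched by the main set held 41 genes from CG34124 to Cyp28d1 over 254 kb. It took in vkg and Col4a1, the ribosomal protein gene RpL37A, the proteasome gene Rpn11, the histone variant gene His3.3A and Msp300. The next rows held 27 genes (Tig to CG11050), 26 (Snoo to PAPLA1) and 24 (Ripalpha to Mob3, within 67.2 kb). The longest row with no touched gene held 30 genes from CG3793 to BicC over 285 kb, with beat-Ib, beat-Ic and Tep1 among them. A row of 11 from CG15394 to Gr23a contained Or23a, Prosbeta4R1 and Prosbeta4R2. Rows of 10 or more genes numbered 38 of 327 rows of touched genes and 9 of 327 rows of untouched genes. The main set touched 1484 of all 2438 coding genes, so touched rows would be the longer ones in any order of the genes. By windows of 1 Mb, main set coverage had a median of 17.9% and a range of 4.99 to 27.6%, and the share of coding genes with an occupied edge ranged from 32.2 to 71.3%. The 3 lowest windows were 17 to 18 Mb (4.99%), 15 to 16 Mb (5.53%) and 14 to 15 Mb (5.64%), and both replicate lists had between 5.05 and 6.24% there.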

How the data were processed

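Pol II ChIP-seq of 2 ChIP replicates with 2 input libraries was used. Per the submitters' processing notes the aligner was Bowtie 0.12.7. No source used here gives the region caller, its threshold or the treatment of reads with several matches. Each list was deposited by the authors with a log2 score per enriched or depleted region, on FlyBase release 5, per the file headers. The score of every enriched region was, within 1e-11, log2 of 1 whole number over another (up to 20000) plus the list's constant. The files do not say that these numbers are ChIP and input reads.

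Overlaps with a RefSeq gene table of release 6 (3201 genes on this stretch, 2438 of them protein-coding) were computed in Python 3.11.15 with numpy 2.4.6 and pandas 2.3.3, and the steps were checked on simulated regions. Wilson intervals of 95% for shares treat regions as independent, and fold intervals are normal on the log scale. With 1 group of samples, no test was run. Results on gene starts, ends, head-to-head pairs and promoter motifs needed strand or sequence and were replaced by gene edges.

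The members, the 21 lists and the alternatives were chosen with earlier results of these data known. Genes were named by a rule: those with an edge in the 10 highest-scoring regions, those in the 5 widest, up to 4 highest-scoring and up to 4 unoccupied members of each list, and the genes nearest to regions with no gene. Other names were chosen after their values were seen. Alternatives were leaving out a replicate, 50% reciprocal overlap, the higher-scoring 50% of each list, gene positions moved by 100 bp, and other windows and gene sets.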

Additional observations from a re-analysis of the deposited data

Results flagged for a closer look

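Regions listed as depleted were not used above, and 8 of them lay on this stretch of 2L in the replicate set list, with 2 in replicate 1 and none in replicate 2. They were singled out as a signal outside the main measurement. Their replicate set scores were close to 0, from -0.09 to -0.0019, and 6 of the 8 held a coding gene edge. All 8 touched a coding gene, namely GABA-B-R3, capu, DIP-theta, CG16854, Pde1c (with 2 regions), vas with wwk, and mtgo. Of the 8, 5 overlapped a region that a replicate list gives as enriched.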

How the results depend on the processing

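Of 183 alternative values, 36 moved and 1 changed sign. A count of regions or genes was taken as moved when it changed by more than 1.5 times, and any other value when it changed by more than the SD between the replicate lists. By the first measure 11 of the 126 counts for gene lists moved, and they stand beside those lists above. The sign change was in the median score of regions with a coding edge minus body-only regions, 0.23 in the main set, which was -0.26 among the higher-scoring 50% of each list, 0.10 with 50% reciprocal overlap and 0.33 to 0.52 when a replicate was left out. The cause was not tested. Among the higher-scoring 50% of each list, the main set had 487 regions over 11.5% of the bases, with 0.41% of regions touching no gene, 39.9% of coding genes with an occupied edge, 15.3% wholly covered, 44.4% of long genes with exactly 1 occupied edge, and a coverage of edges 17.6 points above that of all bases. With 50% reciprocal overlap the coverage was 14.1%, the share of regions touching no gene 0.377%, and the 4 further values were 51.5%, 16.2%, 56.9% and 23.3 points. With 1 replicate left out, coverage was 18.1 to 19.2%, regions touching no gene 0.377 to 0.417%, regions with a coding edge 73.6 to 79.6%, and coding genes with an occupied edge 60.4 to 61.3%. Counting any base within 250 bp of an edge gave 60.6% of coding genes. Regions touching no gene were 1.33% when coding genes alone were used, and long genes with exactly 1 occupied edge were 49.4% at 20 kb or longer.

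No paired analysis was possible because all region lists belong to 1 group, ChIP, and none to the input samples. The alternatives intended for gene starts, start minus end occupancy, head-to-head pairs, genes covered from their start, scores of regions with a start and ribosomal protein starts were not run, since the gene table gives no strand. Unknown depth and counts in lowest terms limit the precision of scores, and a gene with no region is not shown to lack Pol II.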
